A study of Mus musculus with 2 samples.

Results

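The BCL2 family decides whether a cell's mitochondria release the proteins that start apoptosis, and 10 of its genes were followed here in mouse cultures labelled as T helper 9 (TH9) cells: Bcl2, Bcl2l1, Mcl1, Bcl2l11, Bax, Bak1, Bid, Bbc3, Pmaip1 and Bad. They were taken as a named list from 20651 genes that the array's probes could be matched to, and 13 probes read them. The samples compared were 1 culture from SIRT1flox/flox-CD4-Cre mice, whose Sirt1 is floxed and whose Cre is expressed from Cd4, called knockout here, and 1 culture from wild-type mice, each hybridised to a single 1-colour (Cy3) array. Spleen and lymph node cells of both were sorted for a naive phenotype (CD62Lhi and CD44lo among CD4+TCR+ cells). Activation used antibodies to CD3 and to CD28, both at 2 µg/ml, with human IL-2 at 100 U/ml, and the TH9 culture of 5 days (5 to 6 in the protocol) added IL-4 at 10 ng/ml and TGFβ1 at 2 ng/ml. The labels give neither the age of the mice nor whether animals were pooled. With 1 array per genotype there was no replicate, no test between genotypes and no p-value, and the number of arrays limits the precision of every difference below.

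The family works as 3 groups of proteins. Pro-survival proteins (BCL2, BCL-XL from Bcl2l1, MCL1) hold back the effectors BAX and BAK, which otherwise open the outer mitochondrial membrane. BH3-only proteins (BIM from Bcl2l11, BID, PUMA from Bbc3, NOXA from Pmaip1, BAD) sense stress or loss of growth signals and bind the pro-survival proteins, and some of them activate the effectors directly. In T cells, IL-2 family cytokines sustain the pro-survival proteins, and BIM is a main driver of death when an immune response contracts.

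The targeted gene Sirt1, which encodes an NAD-dependent deacetylase, gave a signal of 2920 on the array labelled knockout and 3240 on the wild-type array, a difference of -0.08 ± 0.20 on the log2 scale (scanner error). The sources used here do not give which exons the loxP sites flank or where the probe lies, so this probe does not check the label, and every direction below rests on the label. On the array labelled knockout 65.3% of the gene spots were well above background, against 57.1% on the wild-type array. The 75th percentiles of signal, which scaled the arrays, were 520 on the array labelled knockout and 544 on the wild-type array. Both arrays carried signal of cells other than T cells, including all 12 B cell markers and all 13 matched macrophage and dendritic cell markers. The B cell markers summed to 135857 on the array labelled knockout and 159866 on the wild-type array. Mast cell, basophil and neutrophil markers summed to 129517 and 126562, and the 11 matched T cell identity genes to 80824 and 80242. Such sums over unlike probes do not give shares of cells, but the values below cannot be taken as those of T cells alone. The defining cytokine gene of TH9 cells, Il9, stayed below the level of well above background, with signals of 7.36 on the array labelled knockout and 5.48 on the wild-type array. In such mixed RNA, fewer cells of a type and less RNA per cell cannot be told apart.

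Stretches of mouse genome before RefSeq transcription starts (build GRCm38.p6) are shown, because they belong to the gene with the highest difference (Bbc3), the gene with the lowest (Bid) and the effector with the higher difference of its pair (Bax). Each runs 5′ to 3′ over the 250 bases before the start. Capitals mark every GC box (GGGCGG, searched on both strands, so that CCGCCC marks one on the other strand, with overlapping matches counted) and, in Bax alone, also a p53 half-site. The Bbc3 stretch is chr7:16309333-16309582 on the plus strand, the first of 3 starts in the table, the Bid stretch chr6:120916825-120917074 on the minus strand and the Bax stretch chr7:45466899-45467148 on the minus strand.
Bbc3: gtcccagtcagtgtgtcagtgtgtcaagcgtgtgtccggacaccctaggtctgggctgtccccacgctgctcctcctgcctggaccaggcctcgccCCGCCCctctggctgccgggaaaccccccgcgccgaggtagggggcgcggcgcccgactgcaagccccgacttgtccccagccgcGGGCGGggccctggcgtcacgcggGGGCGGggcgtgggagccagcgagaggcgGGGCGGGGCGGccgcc
Bid: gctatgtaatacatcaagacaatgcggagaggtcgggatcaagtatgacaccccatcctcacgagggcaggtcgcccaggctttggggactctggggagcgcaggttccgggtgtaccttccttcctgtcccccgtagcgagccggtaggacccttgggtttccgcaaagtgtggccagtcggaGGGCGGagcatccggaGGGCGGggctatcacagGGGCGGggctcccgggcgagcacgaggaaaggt
Bax: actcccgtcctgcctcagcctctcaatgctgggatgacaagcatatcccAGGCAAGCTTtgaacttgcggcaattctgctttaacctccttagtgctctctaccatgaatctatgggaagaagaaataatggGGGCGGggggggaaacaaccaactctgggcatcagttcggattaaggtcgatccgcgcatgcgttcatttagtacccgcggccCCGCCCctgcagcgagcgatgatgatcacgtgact

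The table held 15 such stretches for 9 of the members, several of them alternative starts of one gene, and none for Pmaip1. A GC box lay in 10 of the 15, against 32.7% of all 32851 stretches of the same length, and the members' median GC content was 64.4% against 52.4% over all. The 3 Bbc3 starts lay at 76.4%, 72.4% and 81.6% GC, and the 3 Bcl2l1 starts, with 48.4%, 53.2% and 47.6%, held no GC box. The p53 half-site, searched on both strands, was found in 1 of the 15 stretches, the one of Bax printed above, and in 7.13% of all stretches. A full p53 site, 2 adjoining half-sites with exact cores and up to 2 mismatches elsewhere, was found in 0 of the 15 and in 0.134% of all. The FOXO core GTAAACA (either strand) was found in 1 of the 3 Bbc3 stretches and 1 of the 2 Bcl2l11 stretches, and in 3.17% of all, and no member stretch held TATAAA, which 12.4% of all did. These are matches of letters and no binding was measured. The Bbc3 and Bid stretches printed above both carry several GC boxes, 5 and 3, and a link of such letters to the differences was not tested.

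**Figure D1:**
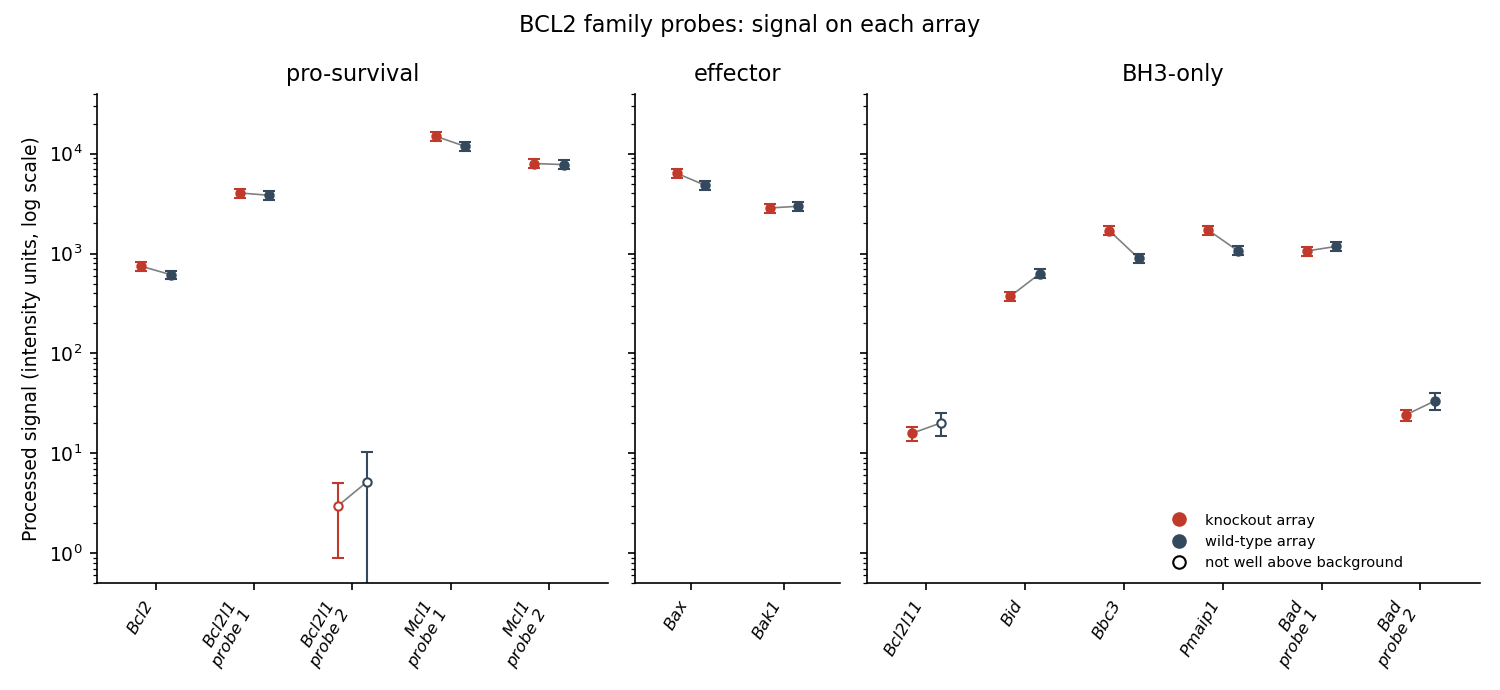
Processed signal (intensity units, log axis) of the 13 probes of the 10 BCL2 family genes on the knockout array (red, left of each pair) and the wild-type array (dark, right), in panels by role. Bars are the scanner's signal error, open points were not well above background, and the bar of the dimmer Bcl2l1 probe on the wild-type array runs below the axis. Bbc3 and Pmaip1 stand higher on the knockout array and Bid lower.

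The highest and the lowest differences of the family both belonged to BH3-only genes, and no member passed 2-fold. Of the 10 genes, 9 were well above background on both arrays, and Bcl2l11 was so on the array labelled knockout only. Among the 9, 0 were at least 2-fold higher and 0 at least 2-fold lower, where 3.95% of 12958 genes above background on both arrays were at least 2-fold higher and 3.63% at least 2-fold lower. At 1.5-fold, 2 members (Bbc3 and Pmaip1) were higher and 1 (Bid) was lower, against 11.0% and 12.0% of all genes. The members' median difference was 0.34 on the log2 scale, knockout minus wild-type, and that of all genes 0.00, with 7 members higher and 2 lower where 50.4% of all genes were higher and 49.6% lower. That median rests on 9 genes, is the value of Bcl2, and ranged from 0.24 to 0.53 with other processing. The central 50% of all genes lay between -0.30 and 0.28, which is a spread of single genes and not of medians of 9 genes.

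Among the pro-survival genes, all 3 had higher values on the array labelled knockout, by small amounts. Bcl2, the founding member, gave a signal of 745 there and 614 on the wild-type array, a difference of 0.34 ± 0.20 (log2, scanner error, as for every ± below). Its probe carries the accession of 1 of the 2 RefSeq transcripts of Bcl2, and the sources used here do not say whether it reads both. Bcl2l1, whose long product BCL-XL is induced by CD28 costimulation, gave 4040 and 3830, a difference of 0.14 ± 0.20 that is smaller than its scanner error.

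Mcl1, which encodes a short-lived protein that T cells need throughout life, was read by a pair of probes that gave unlike differences. The brighter had signals of 14900 on the array labelled knockout and 11800 on the wild-type array, a difference of 0.40 ± 0.20. The dimmer had 7960 and 7770, a difference of 0.10 ± 0.20. The gap of 0.30 between the probes is an ordinary one on these arrays, since 53.1% of the 2902 genes with several probes above background on both arrays had a larger gap, and the probes do not settle the size of the Mcl1 difference. A second Bcl2l1 probe fell short of well above background on both arrays, at signals of 2.97 and 5.20, and gives no difference.

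The effectors split. Bax gave a signal of 6330 on the array labelled knockout and 4840 on the wild-type array, a difference of 0.45 ± 0.20, or 1.37-fold higher, and 15.6% of all genes had a higher difference. Bak1 gave 2860 and 2970, a difference of 0.01 ± 0.20, the smallest in size of the 9 members measured on both arrays. Its sign turned negative without scaling, with loess (-0.0004) and with the background-subtracted signal (-0.06), so no direction is given for it.

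The BH3-only genes held both ends of the family. Bbc3, which encodes PUMA, a target of p53 and of FOXO factors that binds every pro-survival member, gave a signal of 1700 on the array labelled knockout and 892 on the wild-type array. The difference was 0.9955 ± 0.20, or 1.99-fold higher, just under the 2-fold threshold, and 4.01% of all genes had a higher one. With the median as the centre it was 1.18 and with normexp background correction 1.0046, both past the threshold, so its place on either side of 2-fold depends on the scaling.

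Pmaip1, which encodes NOXA, a selective partner of MCL1 and also a p53 target, gave 1720 on the array labelled knockout and 1070 on the wild-type array. The difference was 0.75 ± 0.20, or 1.68-fold higher, with 7.23% of all genes higher still. Bid, whose product is cut by caspase-8 to carry the death receptor signal to mitochondria, ran the other way, with 374 on the array labelled knockout and 631 on the wild-type array. Its difference was -0.69 ± 0.20, or 1.61-fold higher on the wild-type array, and 8.91% of all genes lay lower.

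Bad, which growth factor signals silence by phosphorylation, gave 1060 on the array labelled knockout and 1180 on the wild-type array by its brighter probe, a difference of -0.09 ± 0.20. Its dimmer probe gave 24.2 and 33.6, a difference of -0.41 ± 0.33. The brighter probe's sign turned with the median as the centre (0.10) and with normexp (0.06), so no direction is given for Bad.

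Bcl2l11, which encodes BIM, gave a signal of 15.8 ± 2.61 on the array labelled knockout, well above background, and 20.2 ± 5.35 on the wild-type array, not well above background. The lowest gene signals well above background were 9.76 and 24.6 on these arrays. A bound set against the wild-type array's 24.6 comes out under 1, so no fold is given for BIM, and its transcript was near the limit of detection of this probe on both arrays. The gene has several RefSeq transcripts, and only 1 probe was matched to it.

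**Figure D2:**
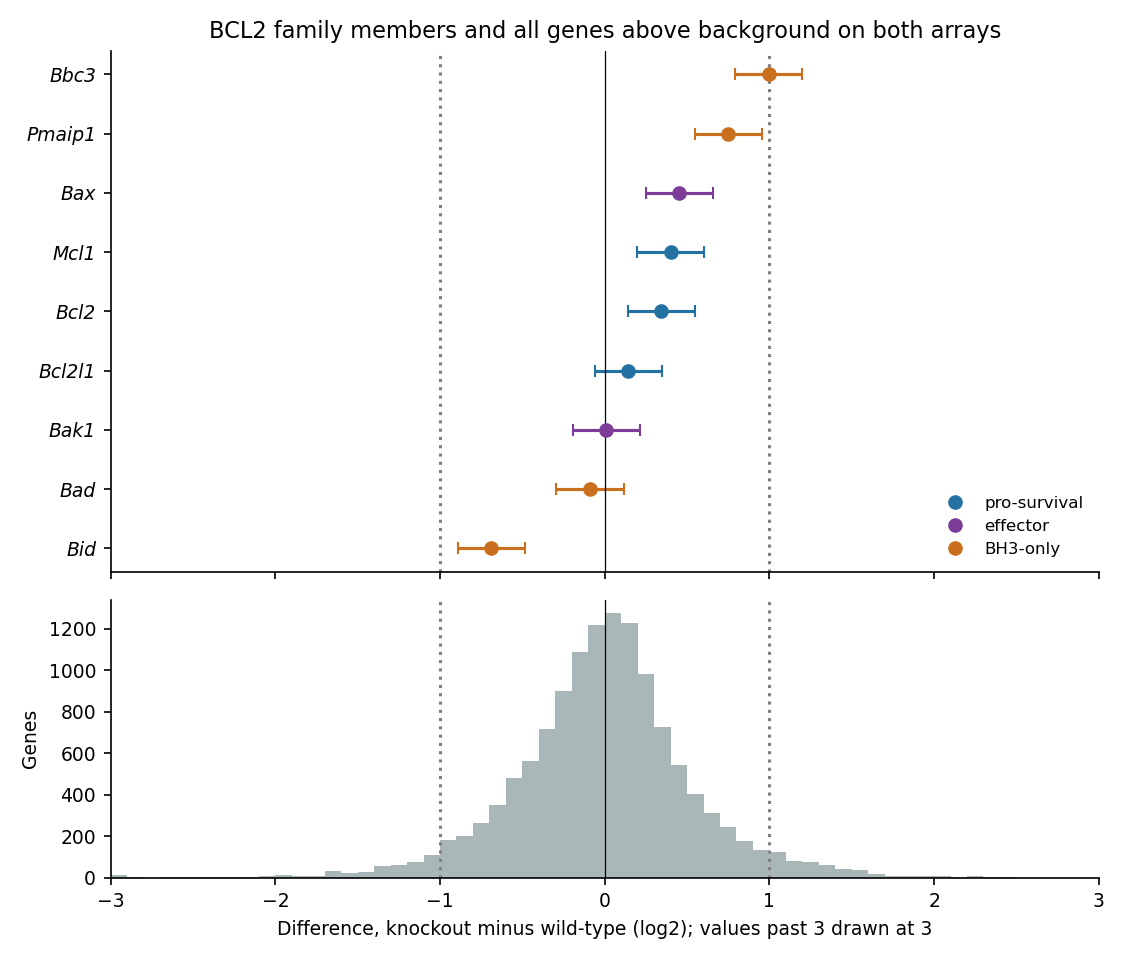
Upper panel: difference (log2, knockout minus wild-type) of the 9 BCL2 family genes above background on both arrays, with the scanner error as bars and colours for the role. Lower panel: the same difference for all 12958 genes above background on both arrays, in bins of 0.1, with dotted lines at 2-fold. Bbc3 lies at the upper line, Bid at -0.69, and the other members between.

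Set against the scanner error, 6 of the 9 members differed by more than it, 5 higher (Bbc3, Pmaip1, Bax, Mcl1 by its brighter probe, and Bcl2) and 1 lower (Bid). Over all genes, 30.3% were higher by more than their error and 30.8% lower, so differences of this size were common between these arrays. The scanner software's error estimate for the Bbc3 spots was 170 on a signal of 1700 and 89.3 on one of 892. Probes spotted repeatedly on an array varied less than that, with a median SD of 0.03 on the log2 scale on the array labelled knockout and 0.04 on the wild-type array. Neither measures how cultures of 1 genotype vary.

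Ratios between members on the same array are unaffected by a constant that scales a whole array, though not by processing that acts unequally on bright and dim spots. For 9 pairs, of binding partners or functional partners and chosen after the values were seen, the change of the ratio between arrays was taken from the representative probes as a description, with no background over other pairs of genes. The ratio of Bid to Bax, the effector that cleaved BID activates, was 2.21-fold higher on the wild-type array, a change of -1.14 ± 0.29 (log2), and that of Bid to Bak1 changed by -0.70 ± 0.29. Over the 10 processing settings these ranged from -1.20 to -1.08 and from -0.70 to -0.59. Since Bid had the lowest difference of the measured members, both changes had to be negative.

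PUMA's transcript was higher relative to each pro-survival gene, which follows from Bbc3 having the highest difference of the measured members. The ratio of Bbc3 to Bcl2l1 changed by 0.85 ± 0.29, that of Bbc3 to Bcl2 by 0.65 ± 0.29 and that of Bbc3 to Mcl1 by 0.59 ± 0.29, or by 0.90 ± 0.29 with the dimmer Mcl1 probe. With normexp these were 0.63, 0.69 and 0.34, the last with the brighter Mcl1 probe. The ratio of Pmaip1 to its partner Mcl1 changed by 0.35 ± 0.29 with the brighter Mcl1 probe and by 0.65 ± 0.29 with the dimmer one, but by 0.16 with normexp, less than its error. The ratio of Bax to Bcl2, often read as a balance of death and survival, changed by 0.11 ± 0.29, less than its error, and by 0.39 with normexp, more than it. That of Bad to Bcl2l1 changed by -0.23 ± 0.29, and by -0.32 with normexp and -0.39 with the mean over probes. The ratio of Bak1 to Mcl1 changed by -0.39 ± 0.29 with the brighter Mcl1 probe but by -0.09 ± 0.29 with the dimmer.

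Further genes of the family were mostly higher too. Of 14 further BCL2 family genes 12 were matched and 9 were well above background on both arrays, of which 7 were higher and 2 lower, with a median of 0.24. For this and the following lists, the shares of all genes at least 2-fold higher and lower were 3.95% and 3.63%. Bok, a less studied relative of BAX and BAK, was the one past 2-fold, with a signal of 695 on the array labelled knockout and 286 on the wild-type array, a difference of 1.35 ± 0.21, or 2.54-fold higher. Bnip3, a HIF1 target that marks mitochondria for removal, lay lowest at -0.80 ± 0.20, and Bmf, a BH3-only gene, had 0.44 ± 0.20. Bcl2a1d, of the pro-survival A1 cluster, had 0.14 ± 0.20, and its paralogs are so alike that its probe may read them too. Bik, Hrk and Bcl2l10 were not well above background on either array.

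Genes that act after the mitochondria showed no common direction. Of 14 genes of the apoptosome, the caspases and their inhibitors, 7 were higher and 7 lower, 0 reached 2-fold, and the median was -0.09. Apaf1, the scaffold that activates caspase-9, had signals of 695 and 501 on the array labelled knockout and the wild-type array, a difference of 0.54 ± 0.20.

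The death receptor route, which BID links to the mitochondria, was mixed as well. Of 11 genes 5 were higher and 6 lower, 0 reached 2-fold, and the median was -0.06. Fasl, the ligand of FAS, had signals of 562 and 350 on the array labelled knockout and the wild-type array, a difference of 0.75 ± 0.21, while Tnfsf10, which encodes TRAIL, had 767 and 1320, a difference of -0.72 ± 0.20. Casp8, the protease that cuts BID, had a difference of -0.07 ± 0.20.

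Genes that set the turnover of MCL1 and BIM had the lowest median of the death-related lists, -0.30, with 4 of 10 higher, 6 lower and 1 at least 2-fold lower. That gene was Gsk3b, a kinase that marks MCL1 for destruction, with 937 and 2020 on the array labelled knockout and the wild-type array and a difference of -1.04 ± 0.20 by its brightest probe, but -0.47 and -0.25 by the others. Among 18 transcription factors and regulators known to act on the family, 17 were above background on both arrays, 8 higher and 9 lower, with a median of -0.06. Trp53, which encodes p53, was dim at 30.0 and 69.6 and 2.22-fold higher on the wild-type array (-1.15 ± 0.25), and Mdm2, which encodes the ligase that degrades p53, had 0.38 ± 0.20. Of the FOXO genes, Foxo1 had 0.46 ± 0.20 and Foxo3 was near background on both arrays.

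The receptors for survival cytokines had a median of 0.19, with 5 of 8 higher and 3 lower and 0 past 2-fold. Il2rb, the IL-2 and IL-15 receptor chain, gave 3880 on the array labelled knockout and 2050 on the wild-type array, a difference of 0.99 ± 0.20. Il2rg, the chain common to these receptors, gave 612 and 917, a difference of -0.52 ± 0.20. Il7r, the receptor chain for IL-7, which sustains Bcl2 in resting T cells, had 0.42 ± 0.20.

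**Figure D3:**
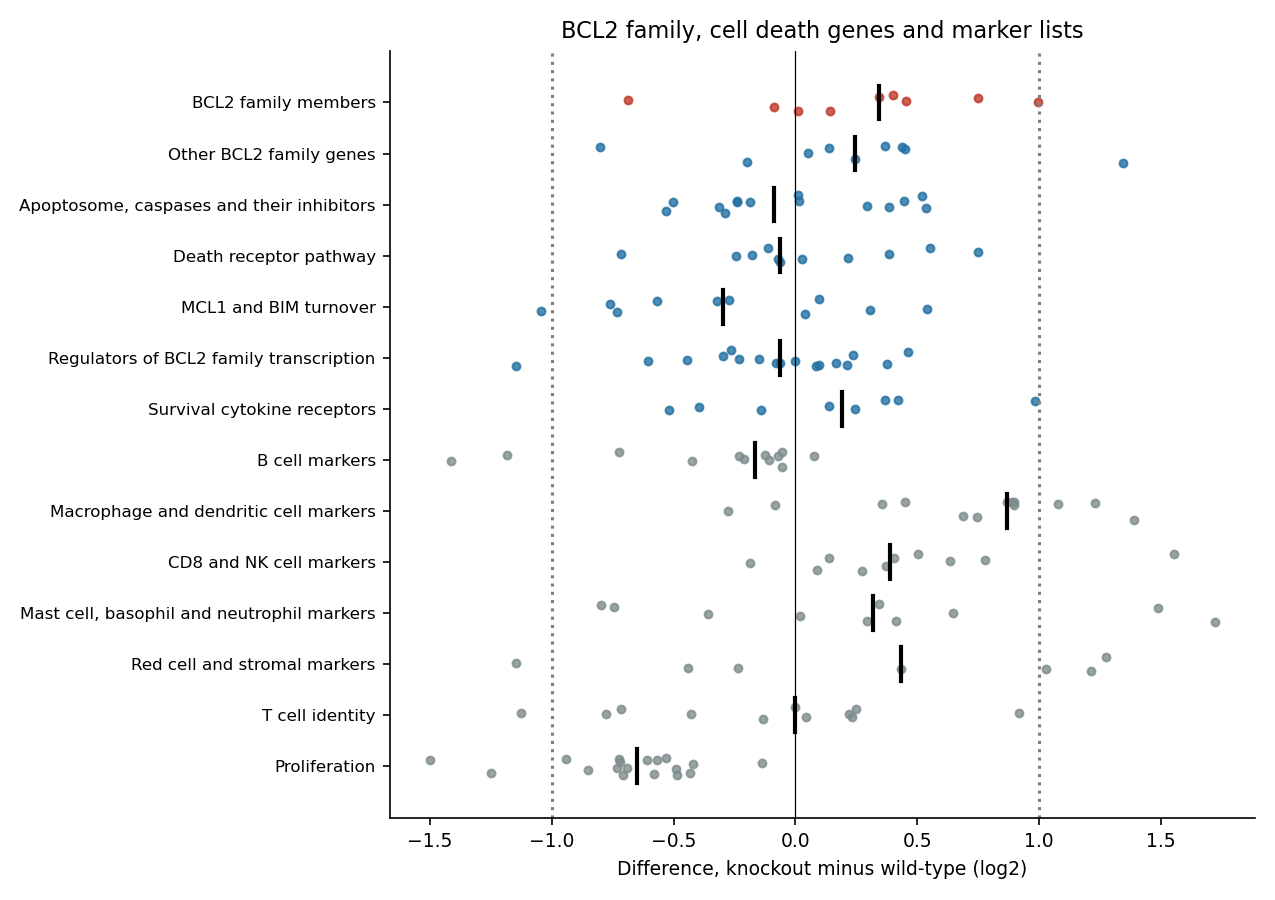
Difference (log2, knockout minus wild-type) of each gene above background on both arrays, in the BCL2 family (red), lists of related death and survival genes (blue) and marker lists (grey). Black bars are list medians and dotted lines mark 2-fold. The BCL2 family median of 0.34 lies above those of the death pathway lists and within the range of the cell type marker lists.

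Signal of other cell types differed between the arrays alongside these genes. Of 13 macrophage and dendritic cell markers on the array labelled knockout 11 had higher and 2 lower values, with a median of 0.87. The lower ones were Siglech (-0.085 ± 0.20) and Flt3 (-0.28 ± 0.20). The summed signal was 87323 on the array labelled knockout and 86371 on the wild-type array, most of it from Siglech. Mrc1 was 2.62-fold and Adgre1 2.34-fold higher. CD8 and NK cell markers were higher in 9 of 10, with a median of 0.39 and sums of 41752 and 22616, Klra1 at 2.94-fold and Gzma at 1.72-fold. Most of the gap between these sums came from Klra1, with signals of 24700 on the array labelled knockout and 8790 on the wild-type array. Of the 10 markers, 7 were higher by more than the scanner error and 3 lay within it. Over all genes, 30.3% were higher by more than their error and 30.8% lower. B cell markers were lower in 11 of 12, with a median of -0.17 and sums of 135857 and 159866, and Blk and Cd79a had differences of -1.41 and -1.18.

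Mast cell, basophil and neutrophil markers had a median of 0.32, with 7 of 10 higher and 3 lower, sums of 129517 and 126562, Cpa3 at 3.30-fold and Fcer1a at 2.80-fold higher, but Mcpt8 at -0.80 and Tpsb2 at -0.74. Ms4a2 was not above background on either array. Red cell and stromal markers had a median of 0.44, with 4 of 7 higher and 3 lower, sums of 6120 and 4365, Col1a2 at 2.42-fold and Pdgfrb at 2.32-fold higher. Alas2 (-1.15) and Hba-a1 (-0.24) of red cells and Pecam1 of vessels (-0.44) were lower, and Klf1 was not above background on either array. T cell identity genes had a median of 0.00, with 5 of 11 higher and 6 lower, sums of 80824 and 80242, Cd3e at -1.13 and Lat at 0.92. All 18 proliferation genes were lower, with a median of -0.65, sums of 44105 and 61495, Ccnb1 at -1.25 by its brightest probe and -0.84 and -0.68 by the others, and Top2a with signals of 190 and 563. The part of these cells, and of the lower proliferation signal, in the values of Bbc3, Pmaip1, Bax, Bid and the other members was not tested.

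**Figure D4:**
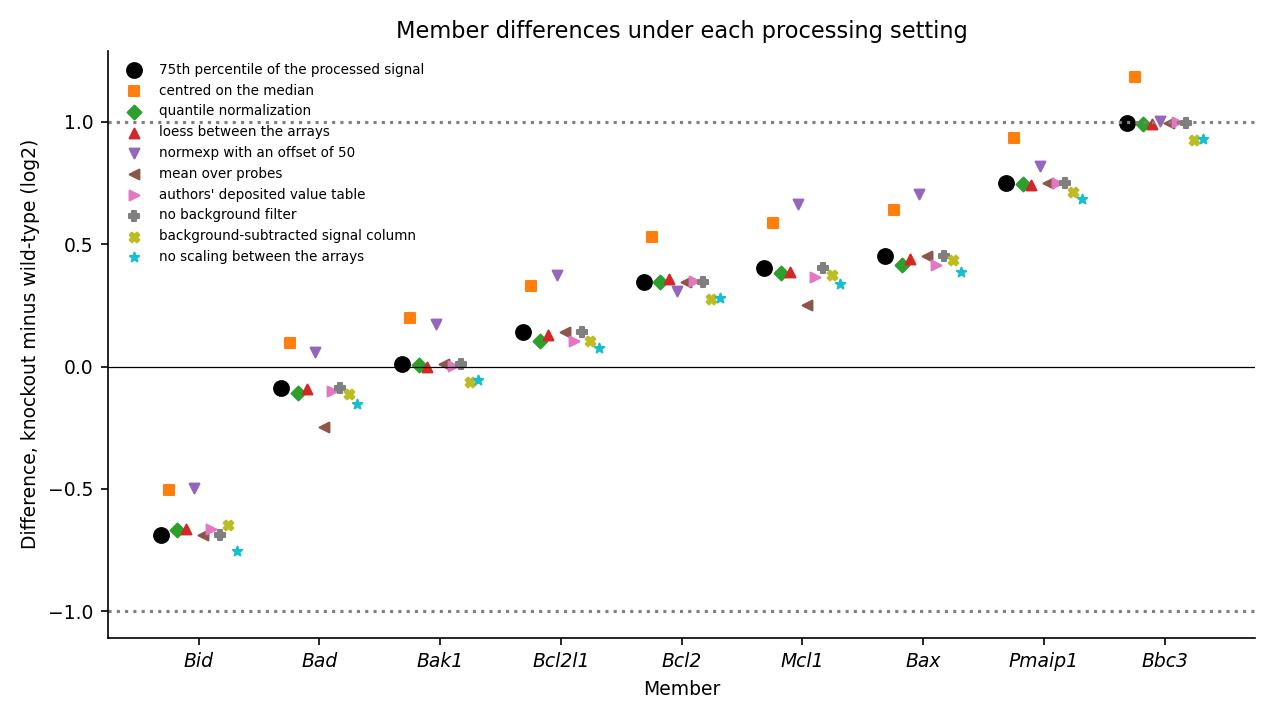
Difference (log2, knockout minus wild-type) of the 9 members under 10 processing settings, with the scaling to the 75th percentile as large black points and dotted lines at 2-fold. Bbc3 is highest, Pmaip1 next and Bid lowest in each of the 10, and the points of Bak1 and Bad lie on both sides of 0.

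The order at the ends of the family did not move with the processing. Bbc3 had the highest difference, Pmaip1 the next and Bid the lowest in all 10 settings drawn in the plot of member differences by setting. Over those settings Bbc3 ranged from 0.93 to 1.18, Pmaip1 from 0.68 to 0.94, Bid from -0.75 to -0.50 and Bax from 0.39 to 0.70. Not every setting could change the order. Centring on the median and leaving out the scaling move every member by the same amount. Averaging over probes and dropping the background filter left Bbc3, Pmaip1 and Bid at their main values. Centring on the median shifted the median of all genes to 0.19. Calls at 2-fold over all genes, 512 higher and 471 lower, became 801 and 292 with that centring, 614 and 349 with quantile normalization and 205 and 1166 with normexp. In the authors' deposited table the differences of the 9 represented probes lay within 0.04 of those given here.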

How the data were processed

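RNA of 2 mouse cultures labelled as TH9 cells, 1 per genotype, was measured on 1-colour arrays. Per the file headers, the deposited scanner files hold each spot's processed signal and its error, an intensity from Agilent Feature Extraction 11.0.1.1 with background subtracted within the array, and both arrays share a slide number and a scan. The authors' deposited value table holds log2 values with a normalization that the sources used here do not give. The main value was log2 processed signal minus each array's 75th percentile over gene probes. Spots with an outlier flag (138 on the knockout array and 228 on the wild-type array, of 43020) were left out, and none of the members' spots had one. Spots of a probe were averaged, and 27220 of 39411 probes matched a gene by unversioned RefSeq accession (GRCm38.p6 table). The probe with the highest mean signal represented a gene, among probes well above background on at least 1 array. Errors of a difference combine both spots' scanner errors.

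The members and lists were chosen with earlier results of these data known. Besides all members and Sirt1, the text names genes of each list with a difference of at least 1 (up to 4) or the 2 largest, and 2 per marker list. Bnip3, Bmf, Bcl2a1d, Bik, Hrk, Bcl2l10, Casp8, Mdm2, Foxo1, Foxo3, Il7r, Il9, Siglech, Flt3, Mcpt8, Tpsb2, Alas2, Hba-a1, Pecam1, Ms4a2 and Klf1 were named after their values were seen. A gene that the rule takes is not reported here. The files used hold no mean pixel intensity, so normexp (limma 3.58.1, offset 50) ran on median intensities. Functions were tested on simulated data. Python 3.11.15 and pandas 2.3.3 were used. Promoter stretches are RefSeq's (GRCm38.p6).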

Additional observations from a re-analysis of the deposited data

How the results depend on the processing

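No paired analysis was possible because each genotype had 1 array. The count of BCL2 family genes at least 2-fold higher, 0, became 1 (Bbc3) with the median as the centre and with normexp. Of all genes, 6.18% were that much higher with the median as the centre and 1.58% with normexp. At a threshold of 1.5-fold the count higher was 2 and the count lower 1, beside 11.0% and 12.0% of all genes. At 3-fold both counts were 0, beside 0.656% of all genes higher and 0.864% lower. The members' median of 0.34 ranged from 0.24 with no background filter to 0.53 with the median as the centre, always above 0. With normexp Bcl2l1 had 0.38, Mcl1 0.66 and Bax 0.70, each further from its main value than its scanner error, and the cause was not tested. Signs of Bak1 and Bad turned in 3 and 2 of the 9 alternatives. The background-subtracted column, the values without scaling and the ratios by setting were tried after the data were seen. Dim signal limits Bcl2l11 and the dimmer probes of Bad and Bcl2l1.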
